A study of Mus musculus with 10 samples.

Results

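Secreted WNT inhibitors and WNT target genes were followed across mouse medulloblastoma (MB) models and the postnatal cerebellum. The genes were chosen by symbol around Sfrp1, which had one of the largest decreases in MYC/SMARCA4 tumors, so the comparisons with these tumors describe them and test nothing. They are 10 of the 50559 genes counted, and 10 of 10 passed the filter on low counts. Sfrp1, Sfrp2, Dkk2, Dkk3 and Wif1 encode secreted proteins of inhibitor families, and Axin2, Lef1, Nkd1, Notum and Tcf7 are known as WNT target genes.

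RNA was sequenced from formalin-fixed paraffin-embedded (FFPE) tissue in 10 libraries. The 4 MYC/SMARCA4 tumors grew in CD1nu/nu hosts, labelled with ages of 112, 96, 89 and 79 days for tumors 1 to 4. The transplanted granule cell precursors (GCPs) came from Math1-creERT2::Smarca4fl/fl pups given tamoxifen on postnatal day 3, were isolated on day 7 and received a lentiviral Myc construct. The 3 P7 cerebella came from Math1-creERT2::Smarca4fl/fl mice aged 7 days that had received tamoxifen (0.4 mg) at day 3 after birth, so these controls carry the Smarca4 deletion alleles too. The 3 SHH MB came from Math1-cre::Smofl/wt mice, also aged 7 days, and no treatment is labelled for them. SHH MB and P7 cerebella thus differ in genotype, Smarca4 alleles and tamoxifen at once, and these cannot be told apart. Math1 directs recombination to GCPs and related hindbrain progenitors, whereas whole cerebella and tumor punches take in every cell type present. The transplanted cells were not sorted, and nude hosts lack T cells but keep other immune cells. Group and age cannot be told apart for MYC/SMARCA4 tumors, because the other groups are 7 days old. Total counts ranged from 5663491 to 9352109 per library. A floor of 3 counts equals 0.307 to 0.744 CPM (counts scaled to library size), and it covers counting error only.

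WNT ligands bind Frizzled receptors and LRP co-receptors, which stabilises beta-catenin and lets it activate genes together with TCF/LEF factors. Secreted inhibitors act outside the cell: SFRP proteins and WIF1 bind ligands, and DKK proteins act on co-receptors, although DKK3 is a divergent member. Several target genes, among them Axin2, Nkd1 and Notum, encode proteins that restrain the same pathway, and activating CTNNB1 mutations are typical of the WNT subgroup of human MB.

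Myc and Smarca4 were read first, since they are the genes altered in the model. Myc had 614, 2043, 11342 and 8326 counts in tumors 1 to 4, against 129, 131 and 91 in P7 cerebella and 247, 286 and 322 in SHH MB. Every tumor thus lay above every other library in Myc, but tumors differed from each other by 10.4-fold in CPM. Smarca4 had 208, 244, 136 and 238 CPM in tumors 1 to 4, 221, 282 and 259 CPM in P7 cerebella and 546, 491 and 590 CPM in SHH MB. The tumor and P7 ranges of Smarca4 overlapped. Counts per gene also take in exons outside the deleted part and host cells, so this value checks the label little.

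Sequences near the starts of the target genes are shown because TCF/LEF factors bind the core motif CTTTGAT, written in capitals below. RefSeq promoter windows on GRCm38.p6, from 250 bases before to 50 after each start, were at hand for 7 of the 10 genes, as 11 windows. Sfrp1, Dkk3 and Notum had no entry. On either strand, 0 of these 11 windows held the motif, against 3.73% of 32851 windows in the table. A wider window of 2 kb on each side of the start, chosen after seeing the data, was then read from GRCm39 for the same 7 genes. Axin2, Nkd1 and Tcf7 each held 3 matches, whereas Sfrp2, Dkk2, Wif1 and Lef1 each held 1. Among 21767 protein-coding genes, 45.4% held at least 1 match and 2.82% at least 3. A match is a description of letters and not a binding site. Each line gives the strand on which the motif reads, the distance in bases from the start of the Ensembl canonical transcript, and the place in that transcript. This start is not always the outer end of the gene or the start that RefSeq uses. The canonical start is base 108811638 of chromosome 11 for Axin2 and base 89247925 of chromosome 8 for Nkd1. By exact match of its letters on GRCm39, the RefSeq window of Nkd1 begins at base 89254011, and its start lies 6336 bases after the canonical one, so it does not reach the match at -23. The RefSeq start of Axin2 lies before the canonical start, and its window ends at base 108811224, before the first match printed.
Axin2, chr11:108811243-108811269, plus strand, -382, before the canonical start, in an exon of another transcript: gccggctgcgCTTTGATaaggtcctgg
Axin2, chr11:108812048-108812074, plus strand, 423, intron: ggccggcgcgCTTTGATgtgcggggcg
Axin2, chr11:108813232-108813258, minus strand, 1607, intron, in an exon of another transcript: aacttagaggCTTTGATcttcaaactt
Nkd1, chr8:89247180-89247206, minus strand, -732, before the gene: accgccggatCTTTGATctttcttagt
Nkd1, chr8:89247889-89247915, plus strand, -23, before the canonical start, in an exon of another transcript: tccgcctcgcCTTTGATgggccgctgc
Nkd1, chr8:89249794-89249820, minus strand, 1882, intron: ttgattcatcCTTTGATcctcagcttg
Lef1, chr3:130902059-130902085, plus strand, -1847, before the gene: actccgacttCTTTGATgaagctgcat
Tcf7, chr11:52175875-52175901, minus strand, -1269, before the gene: aggccttgttCTTTGATaaaagggcaa
Tcf7, chr11:52175276-52175302, minus strand, -670, before the gene: ggcctggtctCTTTGATcctccgccag
Tcf7, chr11:52174185-52174211, minus strand, 421, exon 1: cccgcggtgcCTTTGATgttccgaccc

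Among the secreted inhibitors, Sfrp1 (chr8:23901263-23939648, plus strand, GRCm39) set the groups apart most clearly. Tumors 1 to 4 held 15, 70, 34 and 44 counts of Sfrp1, whereas P7 cerebella held 1333, 884 and 941 and SHH MB held 2922, 3621 and 3048. Every tumor lay below every P7 cerebellum, and every P7 cerebellum lay below every SHH MB. Its mean log2 CPM was 8.78 ± 0.05 (SD, n = 3) in SHH MB, 6.92 ± 0.28 (SD, n = 3) in P7 cerebella and 2.63 ± 0.74 (SD, n = 4) in MYC/SMARCA4 tumors. Tumors differed from P7 cerebella by a log2 fold change of -4.20 (SE 0.40), or 18.4-fold lower, and from SHH MB by -6.05 (SE 0.43). Among genes called lower (adjusted p of at most 0.05), Sfrp1 held rank 7 of 679 against P7 cerebella, just after Zfp936 at -4.41 and before Gm40648 at -4.19, and rank 2 of 676 against SHH MB, after Ttr. Those decreases chose the genes described here. In bulk samples, fewer cells of a type and less RNA per cell cannot be told apart.

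**Figure D1:**
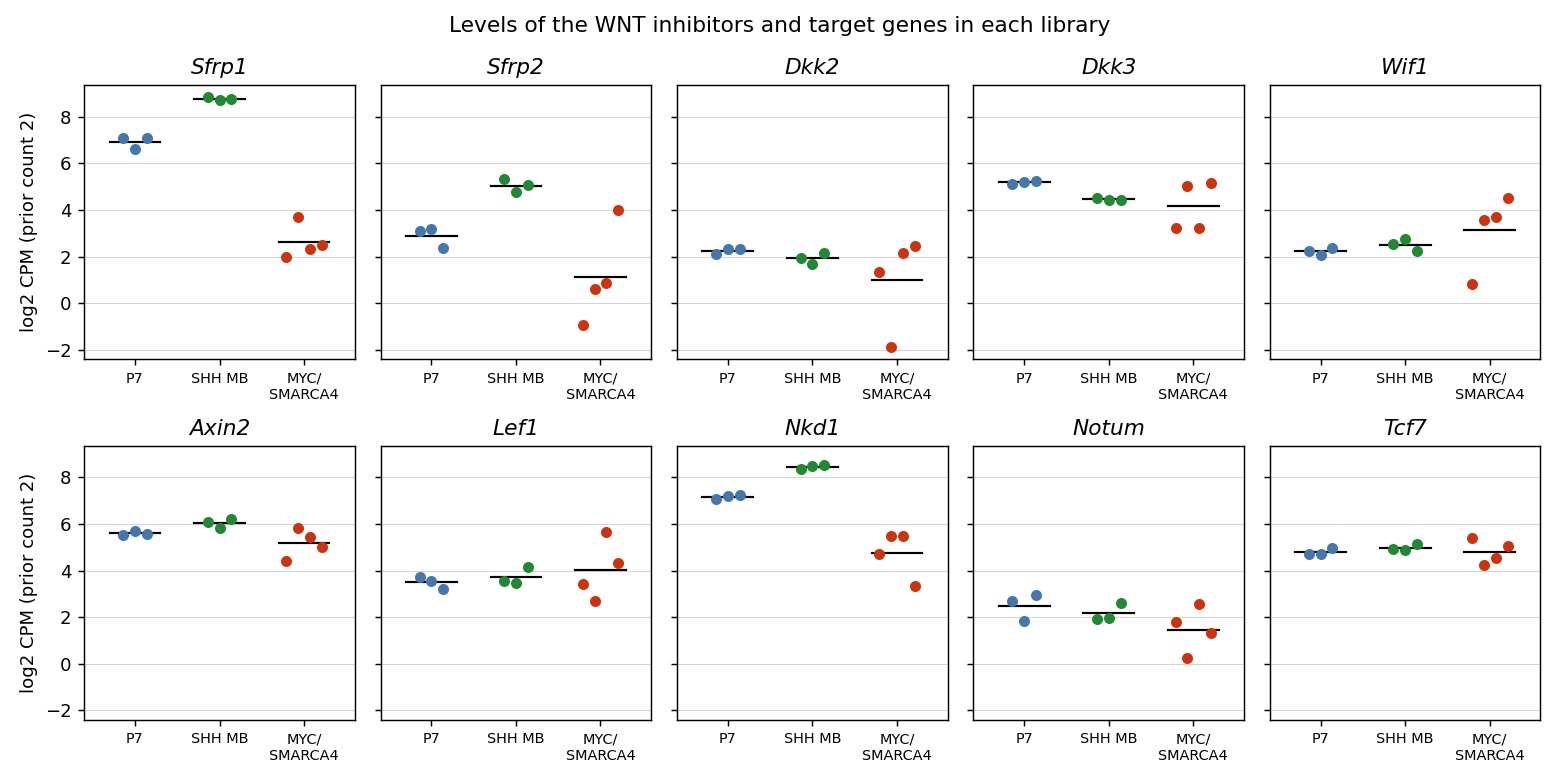
Levels of the 10 genes in log2 CPM, 1 point per library, by group (4 MYC/SMARCA4 tumors, 3 P7 cerebella, 3 SHH MB), with a line at each group mean. Sfrp1 lies at 2.63 ± 0.74 (mean ± SD) in the tumors and at 8.78 ± 0.05 in SHH MB, and tumor points scatter most.

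Sfrp2, which encodes a close relative of SFRP1 (chr3:83673481-83681623, plus strand), rested on a single tumor. Its counts were 1, 7, 11 and 130 for tumors 1 to 4, 80, 81 and 34 for P7 cerebella, and 256, 229 and 231 for SHH MB. Tumor 4 lay above all P7 cerebella and the other tumors lay below them, whereas all tumors lay below all SHH MB. The log2 fold change was -0.56 (SE 0.81) against P7 cerebella and -2.74 (SE 0.81) against SHH MB. Without tumor 4 these became -2.75 and -4.92.

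The remaining inhibitors overlapped between tumors and both other groups. Dkk3 (chr7:111712904-111758760, minus strand) was counted 37, 180, 65 and 290 times for tumors 1 to 4, 335, 335 and 261 times for P7 cerebella, and 144, 179 and 150 times for SHH MB. In CPM, tumors 2 and 4 were close to P7 cerebella, and tumors 1 and 3 lay below every other library, with log2 fold changes of -0.74 (SE 0.43) against P7 cerebella and 0.00 (SE 0.43) against SHH MB. The latter ran from -0.38 without tumor 4 to 0.24 without tumor 1. Wif1 (chr10:120869865-120936555, plus strand), a WNT-binding inhibitor, reached 6, 64, 90 and 186 counts for tumors 1 to 4, 44, 36 and 34 for P7 cerebella, and 35, 55 and 31 for SHH MB. Tumor 1 was lowest and the other tumors were highest of all libraries in CPM, with log2 fold changes of 1.46 (SE 0.59) against P7 cerebella and 1.16 (SE 0.59) against SHH MB, or 0.99 and 0.70 without tumor 4. Dkk2 (chr3:131790336-131886065, plus strand) ranged from 0 counts in tumor 2 to 42 in tumor 4, from 33 to 43 counts in P7 cerebella and from 23 to 29 in SHH MB. The count of 0 in tumor 2 allows up to 0.540 CPM at the floor of 3 counts, and the log2 fold changes were -0.59 (SE 0.72) against P7 cerebella and -0.26 (SE 0.73) against SHH MB, or -0.18 and 0.15 without tumor 2.

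Of the target genes, Nkd1 followed the order of Sfrp1. Nkd1 encodes a Dishevelled-binding antagonist (chr8:89247890-89324577, plus strand). Tumors 1 to 4 held 105, 247, 315 and 80 counts, whereas P7 cerebella held 1302, 1351 and 1075 and SHH MB held 2104, 3054 and 2644. The 3 groups did not overlap, with tumors lowest and SHH MB highest, as in Sfrp1. Its mean log2 CPM was 8.47 ± 0.10 (SD, n = 3) in SHH MB, 7.18 ± 0.11 (SD, n = 3) in P7 cerebella and 4.75 ± 1.01 (SD, n = 4) in MYC/SMARCA4 tumors. Tumors differed from P7 cerebella by a log2 fold change of -2.22 (SE 0.41) and from SHH MB by -3.51 (SE 0.43).

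Axin2, a scaffold of the beta-catenin destruction complex (chr11:108811169-108841609, plus strand), lay closer together across the groups than Nkd1. Its counts were 86, 311, 313 and 263 for tumors 1 to 4, 447, 479 and 331 for P7 cerebella, and 437, 474 and 519 for SHH MB. In CPM tumor 1 was the lowest library and tumor 2, at 56.0, lay above all P7 cerebella. The log2 fold change was -0.34 (SE 0.30) against P7 cerebella and -0.78 (SE 0.30) against SHH MB. These ran from -0.57 and -1.02 without tumor 2 to -0.13 and -0.60 without tumor 1.

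The genes of the transcription factors themselves did not separate the groups. Lef1 (chr3:130903919-131018005, plus strand) reached 42, 35, 358 and 162 counts for tumors 1 to 4, 127, 106 and 64 for P7 cerebella, and 73, 92 and 122 for SHH MB. Tumor 3 was highest and tumor 2 lowest of all libraries in CPM. The log2 fold change of 0.95 (SE 0.56) against P7 cerebella and 0.72 (SE 0.55) against SHH MB became -0.04 and -0.25 without tumor 3. Tcf7 (chr11:52143107-52174619, minus strand) ranged from 18.9 to 42.6 CPM in MYC/SMARCA4 tumors, from 25.8 to 31.2 CPM in P7 cerebella and from 29.0 to 35.2 CPM in SHH MB. Notum (chr11:120541446-120552019, minus strand), whose product removes the lipid from WNT ligands, reached 13, 5, 40 and 18 counts for tumors 1 to 4, 30 to 60 for P7 cerebella and 23 to 41 for SHH MB. Both overlapped across the groups. Against P7 cerebella and SHH MB, the log2 fold changes of tumors were 0.08 (SE 0.29) and -0.11 (SE 0.29) for Tcf7 and -0.91 (SE 0.54) and -0.54 (SE 0.54) for Notum. Those of Tcf7 ran from -0.15 and -0.36 without tumor 1 to 0.24 and 0.05 without tumor 2, and those of Notum became -1.64 and -1.24 without tumor 3.

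Against P7 cerebella, 2 of the 10 genes (Sfrp1 and Nkd1) were called lower and 0 higher, while 2.27% of the 29952 genes tested were called lower and 3.99% higher by edgeR. At an unadjusted p of at most 0.05 there were 3 of the 10 in either direction (25.2% of all genes), and DESeq2 called 2 (14.8% of the genes it tested). Against SHH MB, Sfrp1 and Nkd1 were again the 2 called lower and 0 were higher, beside 2.26% of all genes lower and 2.43% higher, with 4 at an unadjusted p (19.8% of all genes) and 3 by DESeq2 (which called 3062 of the 25606 it tested). Nothing is read from these counts, because the genes were chosen in the same tumors, and both comparisons share those tumors. Sfrp1 was called lower in both comparisons without each 1 of the libraries compared, and in fits of only the groups compared. Against P7 cerebella, Nkd1 was no longer called without P7 cerebellum 1, 2 or 3, which left 1 of the 10 genes called each time (0.697%, 0.469% and 0.628% of all genes), nor in the fit of these groups alone (log2 fold change -2.27, SE 0.50), which also left 1 (0.813% of all genes). Leaving out tumor 1, 3 or 4 added Wif1, Notum or Sfrp2 to the 2, for 3 each, while all genes called were 16.1%, 34.6% and 3.35%. Against SHH MB, the count was 4 without tumor 1 (with Sfrp2 and Wif1) and 3 without tumor 3 or tumor 4 (with Sfrp2), beside 9.77%, 23.4% and 4.21% of all genes. It stayed 2 in the fit of these groups alone, beside 1.48%.

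**Figure D2:**
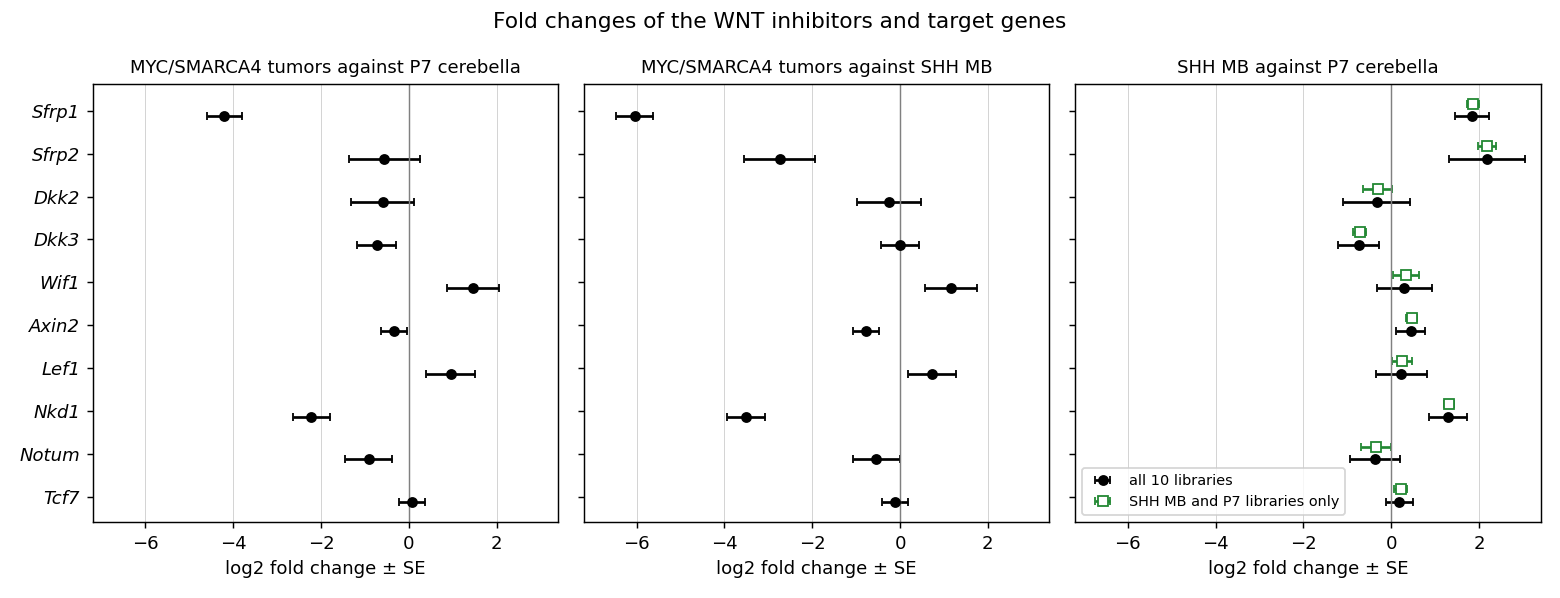
Log2 fold changes of the 10 genes with SE in each of the 3 comparisons, from the fit of all 10 libraries (filled) and, for SHH MB against P7 cerebella, also from a fit of those 2 groups only (open). Sfrp1 lies at -4.20 against P7 cerebella and at -6.05 against SHH MB.

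SHH MB against P7 cerebella compares no tumor library. The tumors still enter the filter, scaling and spread of the fit of all 10 libraries. SHH MB and P7 cerebella also took part in the decreases that singled out Sfrp1. Values of Sfrp1 are thus a description here too, and no p-value is given for it. The other 9 genes were chosen by symbol, with earlier results of these data known, and their p-values are not independent evidence. Sfrp1, Sfrp2, Nkd1 and Axin2 were higher in each of the 3 SHH MB than in each of the 3 P7 cerebella, and Dkk3 was lower in each. The share of all genes that separate these groups fully was not counted, so nothing is read from how many of the genes did. The log2 fold change was 1.84 (SE 0.40) for Sfrp1, 2.18 (SE 0.87) for Sfrp2, 1.29 (SE 0.44) for Nkd1, 0.44 (SE 0.32) for Axin2 and -0.74 (SE 0.47) for Dkk3. In the fit of all 10 libraries, edgeR called 0 of the 9 genes other than Sfrp1, beside 0.177% of all genes higher and 0.0467% lower. Adjusted p was 0.490 for Sfrp2, 0.399 for Nkd1, 0.769 for Axin2 and 0.715 for Dkk3. At an unadjusted p of at most 0.05 there were 2 of these 9 (Sfrp2 and Nkd1), beside 8.8% of all genes, and DESeq2 called 0 of them, beside 2.55% of the genes it tested.

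That fit takes its spread from all groups, and the tumors differ most among themselves. The median SD over all genes was 0.81 in tumors and 0.26 in each other group. The tumor comparisons share this pooled spread too. Against P7 cerebella, the SE of Nkd1 was 0.41 in the fit of all 10 libraries and 0.50 in the fit of those groups alone. These fits called 1873 and 229 genes. In a fit of SHH MB and P7 cerebella alone, edgeR called 4 of the 9 genes other than Sfrp1: Sfrp2, Nkd1 and Axin2 were called higher and Dkk3 lower. Adjusted p in this fit was 5.79e-09 for Sfrp2, 2.03e-09 for Nkd1, 0.0104 for Axin2 and 0.000628 for Dkk3. Of all genes, this fit called 13.4% higher and 10.3% lower. The same fit called cell type markers too, listed with the markers below, and their part in these 4 calls was not tested. The log2 fold changes were nearly the same as before, at 1.86 (SE 0.13) for Sfrp1 and 1.31 (SE 0.12) for Nkd1, and the SE was smaller. Without SHH MB 3, Axin2 was no longer called and 3 of the 9 were left, beside 16.7% of all genes. For Sfrp2, Nkd1, Axin2 and Dkk3 each alone, an exact two-sided permutation test over the 3 and 3 libraries gave p = 0.1, the value that any full separation of 3 and 3 libraries gives and the smallest possible. It gave 0.2 for Dkk2, 0.3 for Wif1, 0.6 for Lef1, 0.6 for Notum and 0.3 for Tcf7. Dkk2, Wif1, Lef1, Notum and Tcf7 overlapped between these groups and were not called in either fit.

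Levels of different genes were compared per kb of exon. In P7 cerebella, Sfrp1 was highest at 25.3 ± 4.64 CPM per kb (SD, n = 3), followed by Nkd1 (17.5), Tcf7 (7.23), Axin2 (6.98), Dkk3 (5.27), Sfrp2 (3.17), Wif1 (1.77), Lef1 (1.2), Notum (1.06) and Dkk2 (1.05). Tcf7 and Axin2 overlapped there, as did Lef1, Notum and Dkk2. In SHH MB, the order in CPM per kb was Sfrp1 (90.8 ± 3.04, SD, n = 3), Nkd1 (42.9), Sfrp2 (14.4), Axin2 (9.50), Tcf7 (8.23), Dkk3 (3.16), Wif1 (2.17), Lef1 (1.41), Dkk2 (0.836) and Notum (0.818). Axin2 overlapped Tcf7, Wif1 overlapped Lef1, and Dkk2 overlapped Notum. In MYC/SMARCA4 tumors, it was Tcf7 (7.63 ± 2.77, SD, n = 4), Axin2 (5.53), Wif1 (4.81), Nkd1 (3.76), Dkk3 (3.15), Lef1 (2.32), Sfrp2 (2.06), Sfrp1 (1.37), Dkk2 (0.681) and Notum (0.560). No neighbours in the tumor order differed beyond the spread between tumors, and Sfrp1, first in both other groups, stood at place 8.

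Scatter among tumors marked all of these genes. The SD of log2 CPM was larger in MYC/SMARCA4 tumors than in both other groups for 10 of the 10 genes, and for 84.4% of all genes tested. The median SD in tumors was 1.04 over the 10 genes and 0.81 over all genes. Overlapping transcripts add another limit, since the strand setting of the counting is not stated in the sources used here. Exons of Sfrp2, Axin2, Lef1, Notum and Tcf7 overlap a gene on the opposite strand, and reads of the pair cannot be told apart without strand. Sfrp1, Dkk3 and Wif1 overlap no annotated gene.

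Genes with profiles closest to Sfrp1 over the 10 libraries, by Pearson's r of log2 CPM, were Vps37b (0.993), Map3k1 (0.992), Mamdc2 (0.991), Adgrg1 (0.987) and Sox8 (0.985). Closest to Axin2 were Khdrbs3 (0.965), Gm51980 (0.964), Ebf3 (0.963), Phf21b (0.960) and Gm12184 (0.956). Of the variance of log2 CPM, 97.5% lay between the 3 groups for Sfrp1 and 94.3% to 99.4% for its 5 genes, so r describes mostly group differences there. For Axin2 this share was 51.9%, and for its 5 genes 41.7% to 65.6%, so r also describes scatter within groups. No test of r was made. Map3k1 shared the order of Sfrp1, with log2 fold changes of -2.33 (SE 0.33) in tumors against P7 cerebella and 1.53 (SE 0.35) in SHH MB against P7 cerebella.

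The other genes of the pathway were read from a list of 78 ordered by role, and 78 of 78 passed the filter. Against P7 cerebella, 1 rose and 5 fell in MYC/SMARCA4 tumors, beside 3.99% and 2.27% of all genes. The R-spondin receptor gene Lgr4 rose, with a log2 fold change of 1.26 (SE 0.27) and an edgeR adjusted p of 0.0215. Of 19 ligand genes, Wnt2 fell by 2.92 (SE 0.73) and Wnt10b fell by 2.46 (SE 0.62) on the log2 scale, with adjusted p of 0.0368 and 0.0376. In tumors, Wnt2 had 0 to 10 counts and Wnt10b 1 to 15, each with 2 of 4 tumors at or under the floor of 3 counts. P7 cerebella held 33 to 44 and 32 to 83 counts, so both fold changes rest on values near the floor. The membrane-bound inhibitor gene Apcdd1 fell by 1.45 (SE 0.34), with adjusted p of 0.0302, and the target genes Nkd2 and Sp5 fell by 1.42 (SE 0.32) and 1.97 (SE 0.45), each with adjusted p of 0.0246. The 6 calls depended on the libraries: edgeR called 0 without P7 cerebellum 1, 2 or 3 (0.697%, 0.469% and 0.628% of all genes), 14 without tumor 1 (16.1%), 2 without tumor 2 (3.36%) and 23 without tumor 3 (34.6%). It also called 0 in the fit of these groups alone (0.813%). In the fit of all 10 libraries 20 passed an unadjusted p of at most 0.05 (25.2% of all genes), and DESeq2 called 13 (14.8%). The median log2 fold change of the list was -0.05, as for all genes tested (-0.05).

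Against SHH MB, 2 of the 78 genes rose and 5 fell, beside 2.43% and 2.26% of all genes. Lgr4 rose by 1.80 (SE 0.28) and the ligand gene Wnt3 by 1.38 (SE 0.33) on the log2 scale, with adjusted p of 0.00361 and 0.0339. Ccnd1, the cyclin D1 gene, had 192, 158, 264 and 1094 counts in tumors 1 to 4, 530, 486 and 460 counts in P7 cerebella, and 2207, 3833 and 3956 counts in SHH MB. Every tumor lay below every SHH MB in Ccnd1, which fell by 2.87 (SE 0.47), with adjusted p of 0.00485. Apcdd1 had 84 to 268 counts in tumors, 517 to 801 in P7 cerebella and 997 to 1138 in SHH MB, and fell by 2.33 (SE 0.35), with adjusted p of 0.00286. The receptor gene Ror2 fell by 2.25 (SE 0.41), the ligand gene Wnt4 by 1.43 (SE 0.34) and Nkd2 by 1.24 (SE 0.32), with adjusted p of 0.0088, 0.0321 and 0.0455. These 7 calls became 4 without SHH MB 1, 2 or 3 (1.14%, 1.09% and 0.955% of all genes), 12 without tumor 1 (9.77%) and 18 without tumor 3 (23.4%). In the fit of these groups alone edgeR called Ror2, Lgr4, Apcdd1 and Ccnd1, which are 4 of the 7, beside 1.48% of all genes. In the fit of all 10 libraries 20 passed an unadjusted p of at most 0.05 (19.8% of all genes), and DESeq2 called 11 (3062 of the 25606 it tested). The median of the list was -0.10, beside 0.01 for all genes tested.

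In SHH MB against P7 cerebella, Ccnd1 was the 1 gene of 78 called in the fit of all 10 libraries, and it rose by 2.97 (SE 0.52) on the log2 scale, with an edgeR adjusted p of 0.0402. It was not called without any 1 of the SHH MB or P7 libraries, which left 0 of 78 and at most 0.0186% of all genes, and in the full fit 13 of 78 passed an unadjusted p of at most 0.05 (8.8% of all genes) and DESeq2 called 2 (2.55%). The fit of these groups alone called 32, of which 20 rose and 12 fell, beside 13.4% and 10.3% of all genes. By that fit, Ccnd1, Fzd7, Apcdd1, Lrp5, Ror2 and Ryk rose and Sp5 and Porcn fell, the 8 with the lowest p. Fzd7 changed by 1.10 (SE 0.13), with adjusted p of 2.16e-07, and Sp5 by -1.65 (SE 0.25), with adjusted p of 9.96e-06. Of 15 receptor and co-receptor genes, 8 rose and 2 fell there, and of 19 ligand genes 1 rose and 7 fell. The list median was -0.01 in the full fit, beside -0.09 for all genes tested.

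**Figure D3:**
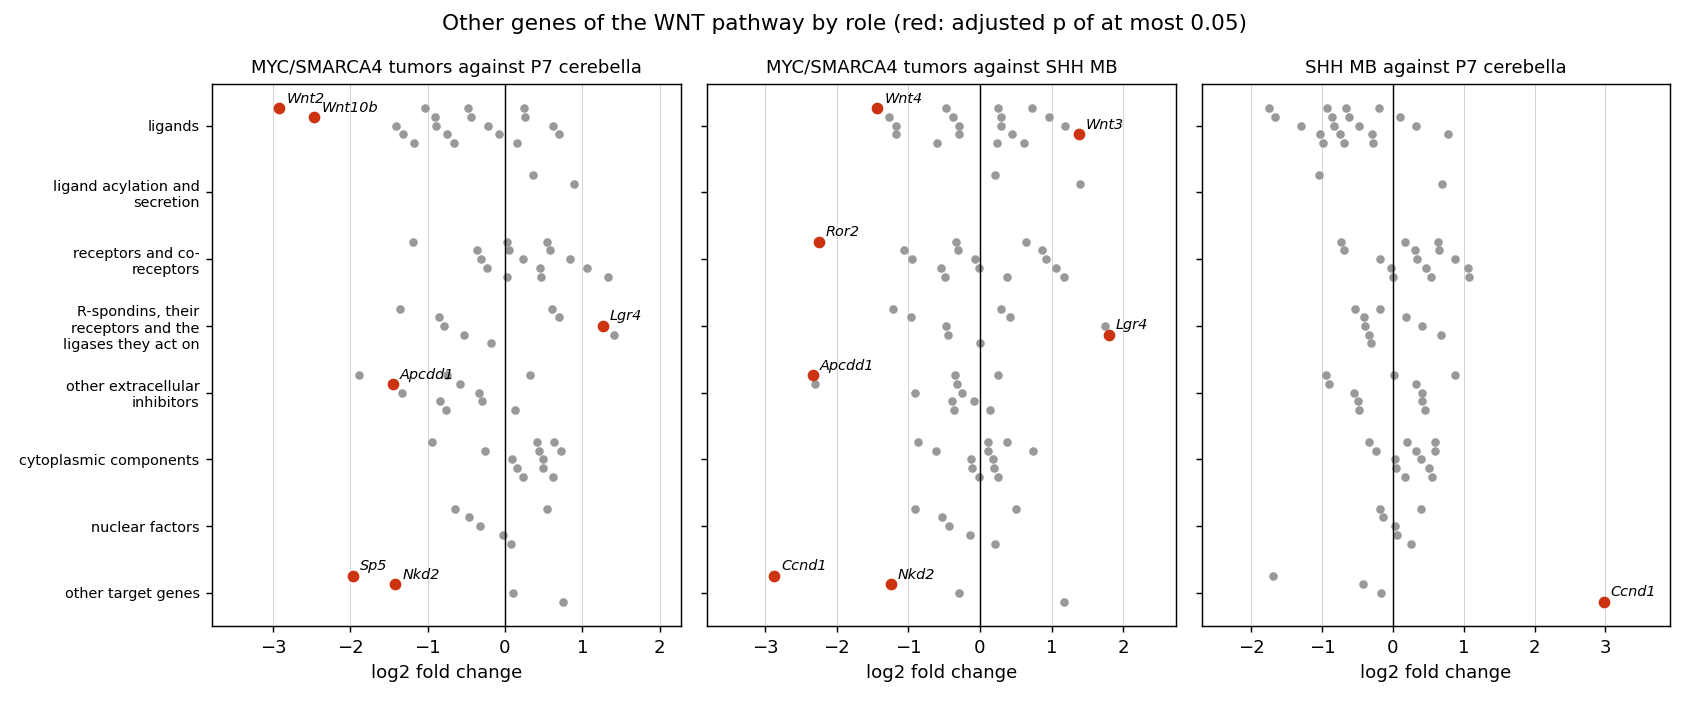
Log2 fold changes of the 78 other pathway genes by role in each of the 3 comparisons, 1 point per gene, with called genes marked. Ccnd1 lies at 2.97 in SHH MB against P7 cerebella and at -2.87 in MYC/SMARCA4 tumors against SHH MB (both called); most genes of the list are called in no comparison.

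By read counts not corrected for length, the gene with the highest mean level over the 10 libraries in each role was Wnt5a (ligands), Wls (ligand secretion), Fzd3 (receptors), Znrf3 (R-spondin axis), Apcdd1 (other inhibitors), Apc (cytoplasmic components), Bcl9l (nuclear factors) and Ccnd1 (other targets). In 3 roles the most abundant gene differed between groups. Mean CPM of Porcn and Wls was 38.1 and 24.5 in P7 cerebella, 49.4 and 45.7 in tumors (with overlapping ranges), and 18.6 and 39.7 in SHH MB. Lgr4 had a mean of 102 CPM and Znrf3 one of 86.9 CPM in tumors, with overlapping ranges, while Znrf3 was the higher in both other groups. Bcl9 had a mean of 131 CPM and Bcl9l one of 123 CPM in SHH MB, also with overlapping ranges, while Bcl9l had the higher mean in both other groups. Bcl9l, a beta-catenin co-factor, stood at 6.78 ± 0.30 log2 CPM (SD, n = 4) in tumors, 7.12 ± 0.02 (SD, n = 3) in P7 cerebella and 6.94 ± 0.09 (SD, n = 3) in SHH MB. Wls, the ligand carrier, stood at 5.48 ± 0.44, 4.63 ± 0.15 and 5.32 ± 0.12 in the same groups.

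Markers of some cell types differed between the groups, and their part in the results above was not tested. The shares of all genes called in each comparison, fit and tool, given above, stand beside the counts of these lists too. Of 5 GCP markers, Barhl1 was called lower in tumors in both comparisons (log2 fold change -3.16 against P7 cerebella, -4.78 against SHH MB), and it rose by 1.62 (SE 0.28) in SHH MB against P7 cerebella, with an edgeR adjusted p of 0.0394. At an unadjusted p of at most 0.05 there were 2 of the 5 against P7 cerebella and 3 against SHH MB, and DESeq2 called 1 and 3 lower. In every tumor, 2 of the 5 lay below every P7 cerebellum and 3 (Atoh1, Barhl1 and Pax6) below every SHH MB. The share of all genes that lie so was not counted, so nothing is read from this separation. By the different measure of edgeR calls, 2.27% and 2.26% of all genes were lower. Atoh1 had 2, 137, 225 and 28 counts in tumors 1 to 4, 137 to 291 in P7 cerebella and 629 to 980 in SHH MB. Summed over the list, GCP markers had 1528, 1083, 529 and 510 CPM in tumors 1 to 4, 1433, 1490 and 1355 in P7 cerebella and 1595, 1683 and 1931 in SHH MB, and Zic1 was the most abundant of them in every library. Tumors 2, 3 and 4 lay below every P7 cerebellum and SHH MB in this sum. Without Zic1 the sums were 628, 474, 257 and 230 CPM in tumors 1 to 4, 539 to 578 CPM in P7 cerebella and 816 to 1022 CPM in SHH MB. Of 5 markers of mature granule neurons, 4 were called higher in tumors in both comparisons, beside 3.99% and 2.43% of all genes. DESeq2 called 4 higher in each. In either direction it called 14.8% of genes tested against P7 cerebella and 3062 of 25606 against SHH MB. The fifth marker, Rbfox3, overlapped between the groups and was not called. Its log2 fold change was -0.79 (SE 0.46) against P7 cerebella and -0.69 (SE 0.46) against SHH MB. In fits of only the groups compared, edgeR called 0 of 5 against P7 cerebella (4 at an unadjusted p of at most 0.05 in the fit of all 10 libraries) and 3 against SHH MB. Their sum was 3753, 1461, 275 and 795 CPM in tumors 1 to 4, 655 to 735 CPM in P7 cerebella and 491 to 623 CPM in SHH MB. Rbfox3 was the most abundant of them in P7 cerebella and SHH MB, where it made up 78.8% to 93.6% of the sum, and in tumor 3, and Cbln3 in tumors 1, 2 and 4. Without Rbfox3 the sums were 3132, 1091, 162 and 597 CPM in tumors 1 to 4, 119 to 156 CPM in P7 cerebella and 39.7 to 46.4 CPM in SHH MB, so every tumor lay above every other library, whereas tumor 3 lay below all of them with Rbfox3. Purkinje markers summed to 10917, 2592, 340 and 1803 CPM in tumors 1 to 4, 1190 to 1336 CPM in P7 cerebella and 329 to 595 CPM in SHH MB, with Itpr1 the most abundant in every library. Without Itpr1 the sums were 3822, 536, 50.9 and 375 CPM in tumors 1 to 4, 593 to 683 CPM in P7 cerebella and 112 to 234 CPM in SHH MB, so tumors 2 and 4 lay above every P7 cerebellum with Itpr1 and below without it. edgeR called 2 of 6 higher in tumors against SHH MB, and 0 in the fit of these groups alone, beside 5 at an unadjusted p of at most 0.05 in the fit of all 10 libraries and 3 by DESeq2. Against P7 cerebella edgeR called 0 of 6, with 2 at an unadjusted p of at most 0.05 and 2 by DESeq2. Tumor 1 was the highest library in both neuronal sums and tumor 3 the lowest tumor.

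Of 9 markers of astrocytes and Bergmann glia, 3 were called lower in tumors against P7 cerebella, beside 2.27% of all genes. Against SHH MB, 1 was called higher and 1 lower, beside 2.43% and 2.26% of all genes. In fits of only the groups compared, edgeR called 1 and 0 of them, beside 0.813% and 1.48% of all genes. DESeq2 called 2 of the 9 in each comparison. With all 10 libraries fitted, 7 and 3 passed an unadjusted p of at most 0.05, beside 25.2% and 19.8% of all genes. The 9 markers summed to 427, 2510, 504 and 1901 CPM in tumors 1 to 4, 2143 to 2216 CPM in P7 cerebella and 1723 to 2010 CPM in SHH MB. The most abundant was Slc1a2 in tumors and SHH MB and Aqp4 in P7 cerebella. Without Slc1a2, the other 8 markers summed to 309, 953, 113 and 561 CPM in tumors 1 to 4, 1607 to 1660 CPM in P7 cerebella and 820 to 932 CPM in SHH MB. Choroid plexus markers summed to 77.3, 48.4, 49.3 and 54.8 CPM in tumors 1 to 4, 591, 1185 and 690 CPM in P7 cerebella, and 937, 1302 and 288 CPM in SHH MB, with 2 of 7 called lower in each tumor comparison and 1 in each fit of only the groups compared. At an unadjusted p of at most 0.05 there were 5 against P7 cerebella and 4 against SHH MB, and DESeq2 called 5 and 3 lower. In every tumor, 5 of the 7 lay below every P7 cerebellum and 2 below every SHH MB. How many of all genes lie so was not counted, so nothing is read from this separation. The edgeR calls, a different measure, were lower for 2.27% and 2.26% of all genes. Ttr was the most abundant in P7 cerebella and SHH MB and Kcnj13 in all 4 tumors, at 55.3, 35.8, 14.6 and 38.2 CPM. Ttr made up 79.6% to 92.6% of the sum in P7 cerebella and SHH MB. Without it, the sums were 75.4, 48.2, 46.2 and 53.9 CPM in tumors 1 to 4, 74.6 to 87.6 CPM in P7 cerebella and 58.9 to 110 CPM in SHH MB. In this sum tumor 1, with 55.3 CPM from Kcnj13, lay above P7 cerebellum 1 and SHH MB 3, and tumors 2, 3 and 4 lay below every other library. Ttr itself had 8, 1, 22 and 7 counts in tumors and at least 1616 in every other library. Oligodendrocyte markers, with Mbp the most abundant in every library, ranged from 104 to 3909 CPM in tumors, 919 to 1098 CPM in P7 cerebella and 111 to 373 CPM in SHH MB. Without Mbp the sums were 1620, 395, 69.5 and 241 CPM in tumors 1 to 4, 407 to 451 CPM in P7 cerebella and 54.4 to 175 CPM in SHH MB. In both tumor comparisons edgeR called 0 of these 6, with 0 (against P7 cerebella) and 4 (against SHH MB) at an unadjusted p of at most 0.05 and 0 and 2 by DESeq2.

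Markers of endothelium summed to 117 to 401 CPM in tumors, 236 to 260 CPM in P7 cerebella and 228 to 276 CPM in SHH MB, and the most abundant was Flt1 in all tumors and P7 cerebellum 2 and Kdr in the other libraries. Of the 10, Kdr was called lower in tumors against SHH MB, and not in the fit of these groups alone, with an edgeR adjusted p of 0.0197 and 0.0654, while 2 passed an unadjusted p of at most 0.05 and DESeq2 called 1. Against P7 cerebella edgeR called 0 of the 10, with 2 at an unadjusted p of at most 0.05 and 1 by DESeq2. Markers of fibroblasts and meninges summed to 184 to 427 CPM in tumors, 383 to 411 CPM in P7 cerebella and 357 to 429 CPM in SHH MB, and the most abundant was Col1a1 in tumors 1 and 4 and Pdgfra in the other libraries. Tumor ranges took in most of the other libraries in both lists, but each upper end was a single tumor. These were tumor 1 for endothelium and tumor 2 for fibroblasts and meninges. In each sum the other tumors lay below every P7 cerebellum and SHH MB, at 117 to 188 and 184 to 332 CPM. Microglia and macrophage markers (Csf1r the most abundant in every library) summed to 32.9 to 108 CPM in tumors, 54.6 to 61.4 CPM in P7 cerebella and 39.3 to 63.6 CPM in SHH MB. T cell markers (Cd5 the most abundant in tumor 1, Cd4 in the other libraries) summed to 5.04 to 29.7 CPM in tumors, 18.7 to 19.1 CPM in P7 cerebella and 14.8 to 20.7 CPM in SHH MB. edgeR called 0 of 8 fibroblast and meningeal, 0 of 6 microglial and macrophage and 0 of 7 tested T cell markers in the tumor comparisons, and DESeq2 called 0 of each. At an unadjusted p of at most 0.05 there were 3 fibroblast and meningeal markers against SHH MB and 1 microglial and macrophage marker against P7 cerebella, and 0 in the other tumor comparisons of these lists. In SHH MB against P7 cerebella, the fit of these groups alone called all 6 Purkinje and all 6 oligodendrocyte markers lower, 7 of 9 astrocyte and Bergmann markers lower and 1 higher, 3 of 5 mature granule markers lower and 2 of 5 GCP markers higher. It called 1 of 10 endothelial markers lower, 2 of 8 fibroblast and meningeal markers lower and 1 higher, and 1 of 7 choroid plexus markers lower and 1 higher, beside 10.3% of all genes lower and 13.4% higher. In this fit edgeR called 0 of 6 microglial and macrophage and 0 of 7 T cell markers. In the fit of all 10 libraries edgeR called 0 of each list but Barhl1. At an unadjusted p of at most 0.05 in that fit there were 1 Purkinje, 1 oligodendrocyte, 4 astrocyte and Bergmann, 2 granule, 2 GCP and 1 fibroblast and meningeal markers, and 0 of the other 4 lists. DESeq2 called 1 GCP marker higher, 1 granule marker lower and 0 of the other lists. Trac, which T cells need for their receptor, had 0 counts in every library, and Cd3e had 0 in tumor 2. Nothing is read from Trac, since all groups held 0 and the annotation of the counting is not given. The share of counts from mitochondrial genes was 5.72%, 2.56%, 2.5% and 2.09% in tumors 1 to 4 and 1.09% to 1.5% in the other libraries.

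**Figure D4:**
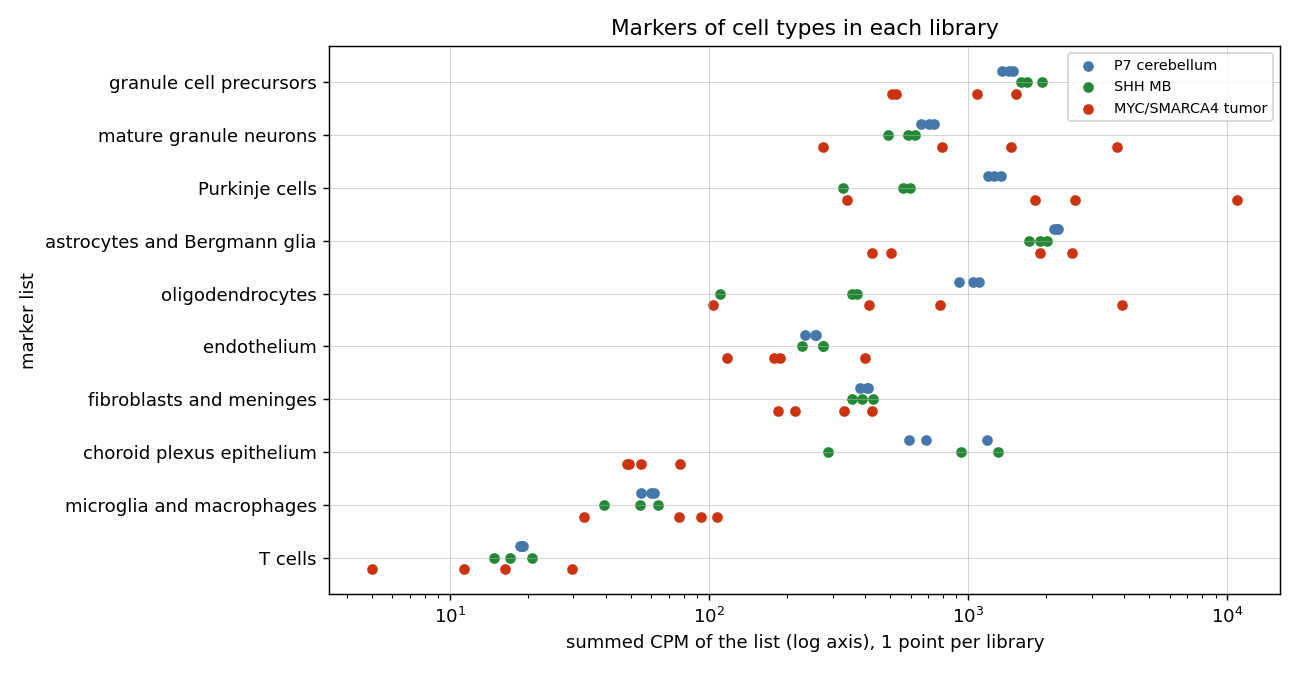
Summed CPM of each cell type marker list on a log axis, 1 point per library, by group. Choroid plexus markers lie between 48.4 and 77.3 CPM in the 4 tumors and at 288 CPM or more in all other libraries; without Ttr, tumor 1 overlaps both groups and the other tumors lie below them.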

How the data were processed

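RNA of 4 MYC/SMARCA4 tumors, 3 P7 cerebella and 3 SHH MB was analysed. Per the labels and methods, the authors extracted FFPE RNA, depleted ribosomal RNA (RiboCop), prepared CORALL Total RNA-seq libraries, checked reads with FastQC 0.73, trimmed them with Trimmomatic 0.38.1, aligned them to GRCm39 with STAR 2.7.8a and counted them with featureCounts 2.0.1. The deposited values used here are whole-number read counts per gene, without normalization. The authors also deposited values on a log2 scale from the variance-stabilizing transformation of DESeq2 (2.11.40.7), used only as an alternative. The annotation and strand setting of the counting are not given in the sources used here.

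Differences were tested by edgeR 4.0.16 (glmQLFit and glmQLFTest; limma 3.58.1, R 4.3.3), with TMM scaling, filterByExpr by group and 1 mean per group in a fit of all 10 libraries. P-values were adjusted by Benjamini-Hochberg over 29952 genes, and a gene was called at an adjusted p of at most 0.05. SE is the absolute log2 fold change divided by the square root of the quasi-likelihood F. Levels are log2 CPM with a prior count of 2. The scripts were tested on simulated data with the same spread in all genes and groups, unlike the data here. Alternatives used DESeq2 1.42.0, limma on the deposited values, other scalings, filters and thresholds, only the groups compared, a replicate block and left-out libraries. Gene positions and lengths came from the GENCODE annotation of GRCm39. Figures were drawn with matplotlib 3.10.9.

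Beside the 10 genes, those named were pathway genes past the threshold (at most the 8 with the lowest p), the gene with the highest mean level in each role, the 5 genes most correlated with Sfrp1 and with Axin2, the marker of each list with the highest mean over the 10 libraries and markers at or under 3 counts in a group. Other names were chosen after their values were seen. The genes and lists were chosen with earlier results of these data known. The 4 tumors differ in age and so came from separate mice, and the 3 P7 samples are described as whole cerebella, of which a mouse has 1, whereas nothing says that the 3 SHH MB came from separate animals. P-values measure the spread between these samples, which within SHH MB may be technical.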

Additional observations from a re-analysis of the deposited data

Results flagged for a closer look

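In 3 of 88 groups of 4 tumors, 1 tumor lay far from the other 3 for its group's range, and 0 of the 10 inhibitor and target genes were among them. Chance gives about 1 such group in 20. Wnt3 was at 3.18 log2 CPM in tumor 4, with the nearest tumor at 4.22. Wnt4 was at 3.47 log2 CPM in tumor 2, with the nearest tumor at 2.45. Tnfrsf19 was at 3.35 log2 CPM in tumor 1, with the nearest tumor at 5.81. The cause was not tested.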

How the results depend on the processing

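Counts of called genes moved with the tool, the libraries fitted and the threshold, and the cause was not tested. For MYC/SMARCA4 tumors against P7 cerebella, 1873 genes were called by edgeR; DESeq2 called 4485, a fit of these groups alone 229, the replicate block 370, a log2 fold change of at least 2.5 with an adjusted p of at most 0.01 gave 87, and an unadjusted p of at most 0.05 gave 7558. Leaving out 1 library gave 150 (without P7 cerebellum 2) to 9932 (without tumor 3). Against SHH MB, the 1403 genes became 3062, 388, 631, 180 and 5939 in the same order, and 311 (without SHH MB 3) to 6729 (without tumor 3). For SHH MB against P7 cerebella, the 67 genes became 465, 6883, 19, 3 and 2635, with 133 among genes with at least 10 counts in every library and 0 to 6 without 1 of the compared libraries. Fits chosen after seeing the data, without 1 tumor, gave 81 to 946, and the fit of these groups alone gave 6630, 5203 and 6159 without P7 cerebellum 1, 2 and 3 and 6252, 5738 and 5323 without SHH MB 1, 2 and 3.

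In SHH MB against P7 cerebella, edgeR called 0 of the 10 genes (0.224% of all genes) and DESeq2 called 1 (2.55% of those it tested). The fit of these groups alone called 5 (23.7%), and 3 passed an unadjusted p of at most 0.05 (8.8%). The count was 0 without any 1 of the compared libraries (at most 0.0186% of all genes) and 0 to 1 without 1 tumor (0.271% to 3.17%). It was 4 to 5 in the fit of these groups alone without 1 library (16.7% to 22.2%). Every count above 0 takes in Sfrp1, which is described only. Lef1 had a log2 fold change of 0.24 in the fit of these groups alone and -0.0103 in that fit without SHH MB 3, with no call in either. Sfrp1 ranged from -4.71 to -3.95 against P7 cerebella, from -6.55 to -5.82 against SHH MB and from 1.72 to 1.95 between SHH MB and P7 cerebella.

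Of the 78 other pathway genes, the 6 called against P7 cerebella became 13 by DESeq2, 0 in the fit of these groups alone, 1 with the replicate block, 0 at the stricter thresholds, 20 unadjusted and 0 to 23 without 1 library. Against SHH MB, the 7 became 11, 4, 6, 1 and 20 in the same order, and 4 to 18. For SHH MB against P7 cerebella, the 1 became 2, 32, 1, 0 and 13, 0 without 1 compared library, 1 to 3 without 1 tumor, and 29, 25, 27, 28, 26 and 25 in the fit of these groups alone without P7 cerebellum 1 to 3 and SHH MB 1 to 3.

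Pairing by replicate number was not seen. Of 9 pairs with the same number, 1 had a correlation of deviations over 0.1, with a range of -0.27 to 0.16. Pairs with different numbers reached 0.30 (SHH MB 3 and tumor 2). With so few libraries per group, this cannot exclude a shared batch, and the block stands here only. A prior count of 0.5 moved 0 of 30 group levels by more than 1 SD. RLE scaling shifted the median of all genes by at most 0.03 (log2). Genes under about 10 counts, such as Sfrp2, Dkk2, Notum, Wnt2 and Wnt10b in some tumors, are limited by counting error.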
